A study of Mus musculus with 6 samples.

Results

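The CC chemokines described here are *Ccl2*, *Ccl7*, *Ccl8* and *Ccl12*, which attract monocytes and related cells, the inflammatory chemokines *Ccl3*, *Ccl4* and *Ccl5*, the closely related *Ccl6* and *Ccl9*, and *Ccl22*. They were taken by name, as 10 of the 19937 genes that the arrays pair with a probe set of exactly 1 symbol, and each of the 10 has 1 such probe set. RNA was profiled from plasmacytoid dendritic cells (pDCs), the dendritic cells that make type I interferon, grown from bone marrow of C57BL/6 mice with the genotype *Gfi1*f/f; *Gfi1b*f/f; ERCre. In the KO cultures 1 µM tamoxifen was present during differentiation, and the WT cultures were left untreated. Both kinds of culture therefore carry the floxed alleles and the Cre, a tamoxifen-dependent ERT2-Cre knocked into *Rosa26*, and the deletion and the drug itself cannot be told apart. The bone marrow of each of 3 mice was split into a KO and a WT culture in 25 ng/ml Flt-3L, B220+ CD11c+ cells were sorted, and 200 ng of total RNA per culture went to an Affymetrix Mouse Gene 1.0 ST array, which gave 3 arrays per group. Genotyping in the study found the deletion in such pDC cultures to be incomplete, so KO names the tamoxifen-treated cultures here. The age of the mice is not given in the labels.

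Chemokines are small secreted proteins that direct the movement of leukocytes by binding receptors with several membrane-spanning segments, and CC chemokines are those whose first cysteines are adjacent. CCL2, CCL7 and CCL12 bind CCR2 and draw monocytes out of the bone marrow and into tissue, whereas mouse CCL8 acts on CCR8. CCL3, CCL4 and CCL5 are released by activated myeloid and lymphoid cells, and stimulated pDCs are known to secrete CCL3 and CCL4. CCL6 and CCL9 are ligands of CCR1 made mainly by myeloid cells, and CCL22, a product of dendritic cells and macrophages, attracts T cells that carry CCR4. GFI1 and GFI1B are zinc finger proteins that repress transcription and are needed in several blood lineages.

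The genes lie close together. In the RefSeq annotation of GRCm38.p6, 9 of the 10 are on chromosome 11 in a pair of runs, *Ccl2*, *Ccl7*, *Ccl11*, *Ccl12*, *Ccl8*, *Ccl1* and *Ccl5*, *Ccl9*, *Ccl6*, *Ccl3*, *Ccl4*, and *Ccl22* is on chromosome 8 beside *Cx3cl1* and *Ccl17*. Promoter windows, from 250 bases before to 50 bases after the start of the gene, were given for 6 of the 10 (*Ccl12*, *Ccl8*, *Ccl9*, *Ccl6*, *Ccl3* and *Ccl22*). The 250 bases before the start are shown for *Ccl12* and *Ccl8*, neighbours among the monocyte-attracting genes, and for *Ccl9*, the promoter with the most motif matches of the 6. They are RefSeq sequence of GRCm38.p6, read 5′ to 3′ on the strand of the gene, at chr11:82101595-82101844 (plus strand) for *Ccl12*, chr11:82114935-82115184 (plus strand) for *Ccl8* and chr11:83578637-83578886 (minus strand) for *Ccl9*, and capitals mark the motif matches.
Ccl12: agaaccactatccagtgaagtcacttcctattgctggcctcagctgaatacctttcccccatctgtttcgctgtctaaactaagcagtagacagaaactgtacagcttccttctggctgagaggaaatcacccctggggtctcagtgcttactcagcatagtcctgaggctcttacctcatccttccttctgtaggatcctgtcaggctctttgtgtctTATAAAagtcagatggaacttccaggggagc
Ccl8: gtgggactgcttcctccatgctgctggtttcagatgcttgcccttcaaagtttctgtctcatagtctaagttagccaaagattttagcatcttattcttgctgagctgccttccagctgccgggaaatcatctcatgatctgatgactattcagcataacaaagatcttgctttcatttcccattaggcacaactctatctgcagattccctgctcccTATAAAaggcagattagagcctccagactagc
Ccl9: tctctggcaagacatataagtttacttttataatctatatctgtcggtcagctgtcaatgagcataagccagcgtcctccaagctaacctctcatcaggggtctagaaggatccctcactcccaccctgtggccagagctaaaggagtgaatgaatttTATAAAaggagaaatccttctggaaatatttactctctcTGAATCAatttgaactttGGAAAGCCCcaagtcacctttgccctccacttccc

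The TATA box TATAAA, searched on the strand of the gene, began at position -31 in *Ccl12*, -32 in *Ccl8* and -92 in *Ccl9*, and it was in 8.32% of all 32851 windows of 300 bases. In a global alignment, *Ccl12* and *Ccl8* had 54.5% identical columns, the highest of the 15 pairs among the 6 promoters, while the other 14 pairs had 43.7% to 50.6%. *Ccl9* also held a match to the AP-1 motif TGANTCA at -53, found in 7.81% of windows, and a reverse-strand match to the NF-kB motif GGNNTTTCC at -35, found in 5.82%. *Ccl3* held a reverse-strand match to the interferon response motif GAAANNGAA at -39, found in 8.56%. The GFI1 motif AATCACNG, in 3.14% of windows, the PU.1 motif GAGGAAGT, in 3.20%, and the C/EBP motifs TTGCGCAA, in 0.183%, and TTGTGCAA, in 1.01%, were in none of the 6 windows. All motifs but the TATA box were searched on both strands, these motifs do not overlap in the promoters shown, and a match is a description of letters only.

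The arrays did not differ only by treatment. Along the first principal component, with 70.8% of the variance, the KO and WT arrays of mouse 1 lay away from the other 4. Mouse 3 differed from the others in *Xist*, an RNA made by the inactive X, with intensities of 24.6 in its KO and 23.9 in its WT array and 1893 or more in the other 4. The Y chromosome gene *Eif2s3y* had 315 in its KO and 269 in its WT array and 6.43 to 8.03 in the other 4. By these genes mouse 3 was male and mice 1 and 2 were female. The targeted *Gfi1* had intensities of 60.5, 67.1 and 61.9 in the KO arrays of mice 1, 2 and 3 and 56.1, 47.8 and 43.3 in the WT arrays, and *Gfi1b* had 194, 279 and 259 in KO and 179, 161 and 155 in WT arrays. Both were higher in KO arrays, with *Gfi1* above the background level defined below on 1 of the 6, but a probe set covers the whole transcript, so neither value says whether the deletion took place. Intensities have no zero, and 1204 probe sets of olfactory and vomeronasal receptor genes, which blood cells are not known to express, served as background. Their median was 18.8 and their 95th percentile 62.3, called the background level. The median log2 difference, KO minus WT, of these background probe sets was 0.14, beside 0.03 over all probe sets.

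The monocyte-attracting *Ccl2*, *Ccl7*, *Ccl8* and *Ccl12* had low, even intensities in the KO arrays and a wide range in the WT arrays, where the array of mouse 3 stood far above the other 5. Their mean log2 differences, KO minus WT, lay between -1.27 and -0.87, and none passed the test across all genes. *Ccl2*, the main chemokine that recruits inflammatory monocytes, had intensities of 93.4, 167 and 159 in the KO arrays of mice 1, 2 and 3, against 117, 260 and 1131 in the WT arrays. The WT array was the higher one in each mouse, but the groups overlapped, since the WT array of mouse 1 lay below the KO arrays of mice 2 and 3. The mean log2 difference was -1.27 (standard error 0.79, adjusted p = 0.746 in limma, with Benjamini-Hochberg adjustment over 21640 probe sets).

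*Ccl7*, a second CCR2 ligand, had intensities of 108, 111 and 153 in the KO arrays and 116, 193 and 917 in the WT arrays. All 3 KO arrays were below the WT arrays of mice 2 and 3, and only the WT array of mouse 1 fell among them. The mean log2 difference was -1.16 (standard error 0.73), with the same adjusted p in limma as *Ccl2*. *Ccl12*, a CCR2 ligand found in mice, had 65.8, 70.8 and 107 in the KO arrays and 61.5, 132 and 566 in the WT arrays, with 5 of the 6 arrays above the background level. In mouse 1 the KO array was slightly the higher one, in mice 2 and 3 it was the lower. The mean log2 difference was -1.07 (standard error 0.77, adjusted p = 0.774 in limma).

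*Ccl8* was near background in most cultures. Its intensities were 23.8, 25.8 and 27.8 in the KO arrays and 24.1, 35.3 and 121 in the WT arrays, so that the WT array of mouse 3 was the only one of 6 above the background level. No KO array gave a measurable level, and the mean log2 difference of -0.87 (standard error 0.57, adjusted p = 0.751 in limma) describes the WT array of mouse 3 set against arrays at background. In a bulk sample such as these sorted cells, fewer cells of a type that makes a chemokine and less of its RNA per cell cannot be told apart.

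**Figure D1:**
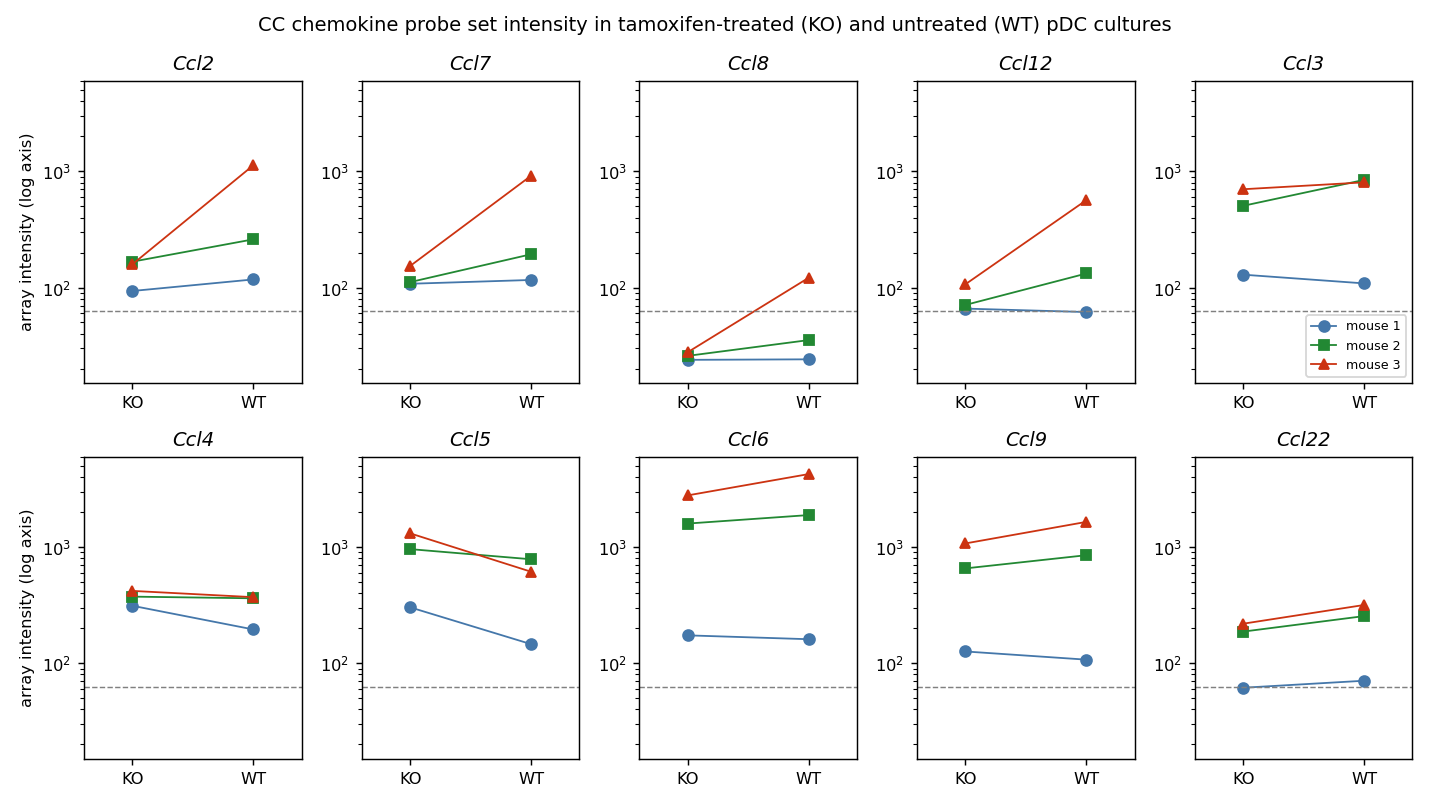
Array intensity (log axis) of the 10 CC chemokines in the KO and WT culture of each mouse, with a line joining the 2 cultures of 1 mouse and the dashed line at the background level of 62.3. For *Ccl2*, *Ccl7*, *Ccl8* and *Ccl12* the WT array of mouse 3 (1131, 917, 121 and 566) is the top point. The mice lie in the same order in KO and WT cultures for *Ccl4*, *Ccl6*, *Ccl7*, *Ccl9*, *Ccl12* and *Ccl22*, and for *Ccl8* on arrays mostly below the dashed line.

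Within mice, the differences of these 4 genes were graded in the same way. In mouse 1 they ran from -0.33 (*Ccl2*) to 0.10 (*Ccl12*), with a median of -0.06, in mouse 2 from -0.90 (*Ccl12*) to -0.45 (*Ccl8*), with a median of -0.72, and in mouse 3 from -2.83 (*Ccl2*) to -2.13 (*Ccl8*), with a median of -2.49. Over all 21640 probe sets the medians were -0.00, 0.02 and 0.04 in mice 1, 2 and 3. Thus *Ccl7* and *Ccl12* were close to equal between the cultures of mouse 1, and *Ccl2*, *Ccl7* and *Ccl12* had lower values in the KO culture of mice 2 and 3. For *Ccl8* both arrays of mice 1 and 2 were below the background level, so no order can be read there. In mouse 3 the WT level was 7.13 times the KO level for *Ccl2*, 5.98 times for *Ccl7* and 5.30 times for *Ccl12*. No ratio is given for *Ccl8*, whose KO array of mouse 3 was below the background level. The difference between mice was not tested.

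These means rest on 1 array to a large extent. Without the WT array of mouse 3, the mean log2 differences were -0.37 for *Ccl2*, -0.29 for *Ccl7*, -0.18 for *Ccl8* and -0.19 for *Ccl12*, and without the WT array of mouse 1 they were -2.00, -1.78, -1.35 and -1.79. In the exact two-sided permutation test over the 20 splits of 6 arrays, whose smallest possible p is 0.1, p was 0.3 for *Ccl2*, 0.2 for *Ccl7*, 0.3 for *Ccl8* and 0.4 for *Ccl12*. With the mouse as a block, limma's standard errors were 0.45, 0.42, 0.37 and 0.41 and the adjusted p-values were 0.332, 0.338, 0.379 and 0.353, so that no call changed. Sign flips of the 3 within-mouse differences, an exact test whose smallest p is 0.25, gave 0.25 for *Ccl2*, *Ccl7* and *Ccl8* and 0.5 for *Ccl12*.

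The inflammatory chemokines gave another picture. *Ccl5* was higher in the KO culture of every mouse, *Ccl4* was higher by a small amount, and *Ccl3* went different ways in different mice. *Ccl5*, a chemoattractant of T cells, NK cells and monocytes, had intensities of 303, 961 and 1314 in the KO arrays of mice 1, 2 and 3, against 146, 786 and 614 in the WT arrays. The levels of the mice differed more than those of their 2 cultures, with both arrays of mouse 1 at the bottom, and the groups overlapped. The log2 differences within mice were 1.05, 0.29 and 1.10, with a mean of 0.81 (standard error 0.79, adjusted p = 0.825 in limma). With the mouse as a block the standard error was 0.17 and the adjusted p 0.288, from an unadjusted p of 0.00267, the smallest among the 10 genes.

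*Ccl4*, a chemokine of activated leukocytes, was the most even of the 10 over the 6 arrays. Its intensities were 312, 375 and 420 in the KO arrays and 195, 362 and 370 in the WT arrays, and only the WT array of mouse 1 stood below the rest. The log2 differences within mice were 0.68, 0.05 and 0.18, with a mean of 0.30 (standard error 0.27, adjusted p = 0.807 in limma). Without the WT array of mouse 1 the mean was -0.0010, so that its direction rests on that array. *Ccl3*, a ligand of CCR1, had 129, 505 and 702 in the KO arrays and 109, 845 and 805 in the WT arrays. Mouse 1 was higher and mice 2 and 3 were lower in the KO culture, with a mean log2 difference of -0.23 (standard error 0.98, adjusted p = 0.969 in limma). In the exact permutation test p was 0.5 for *Ccl5*, 0.5 for *Ccl4* and 0.7 for *Ccl3*.

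*Ccl6* and *Ccl9* differed far more between mice than between cultures. *Ccl6* had intensities of 174, 1595 and 2789 in the KO arrays, against 161, 1887 and 4255 in the WT arrays, so that the highest WT array was 26.4 times the lowest. *Ccl9* had 126, 656 and 1075 in the KO arrays and 107, 852 and 1649 in the WT arrays. For both genes mouse 1 was lowest, mouse 2 intermediate and mouse 3 highest in each group, as for *Ccl4*, *Ccl7*, *Ccl12* and *Ccl22*. The log2 differences within mice 1, 2 and 3 were 0.11, -0.24 and -0.61 for *Ccl6* and 0.23, -0.38 and -0.62 for *Ccl9*. Their means were -0.25 for each gene (standard errors 1.49 and 1.20, adjusted p = 0.978 and 0.972 in limma), differences much smaller than the spread between mice.

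*Ccl22* had intensities of 61.5, 187 and 219 in the KO arrays, against 70.7, 255 and 317 in the WT arrays, 5 of the 6 above the background level. The WT culture was the higher one in all 3 mice, with the KO array of mouse 1 below the background level, while mouse 1 was again lowest in both groups. The log2 differences within mice were -0.20, -0.44 and -0.54, with a mean of -0.39 (standard error 0.71, adjusted p = 0.911 in limma). With the mouse as a block the standard error was 0.11 and the adjusted p 0.307, from an unadjusted p of 0.00993.

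Taken over the 10 genes, the median log2 difference was -0.32, beside 0.03 over all probe sets, and the groups of KO and WT arrays overlapped for every gene. In limma 0 of the 10 passed an adjusted p of 0.05 without the block and 0 with it, as did 0% of all probe sets in each fit. At an unadjusted p under 0.05, 0 of the 10 were lower and 0 higher without the block, against 1.9% and 5.14% of all probe sets. With the mouse as a block 4 were lower (*Ccl2*, *Ccl7*, *Ccl12* and *Ccl22*) and 1, *Ccl5*, was higher, against 5.99% and 7.46% of all probe sets. On mean log2 values 3 of the 10 (*Ccl2*, *Ccl7* and *Ccl12*) were lower in KO by at least 2-fold, a size reached by 0.273% of all probe sets. *Ccl2*, *Ccl7*, *Ccl8* and *Ccl22*, 4 of the 10, were lower in the KO culture of all 3 mice, against 17.4% of all probe sets, where *Ccl8* counts through arrays below the background level and the number is 3 with a floor at the 20th percentile or with dim probe sets left out. *Ccl4* and *Ccl5*, 2 of the 10, were higher in all 3, against 21.3%. No gene of the 10 was lower or higher without overlap between the groups, against 4.65% and 10.2% of all probe sets. All 10 genes were read on the same arrays and cannot be taken as independent of each other, so these counts are descriptions. Whether the shared chromosomal region of a run plays a part was not tested.

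The outcome depended on mouse 1, in which all of the 10 had their lowest level in each group. Without both of its arrays, the mean log2 differences were -1.74 for *Ccl2*, -1.69 for *Ccl7*, -1.29 for *Ccl8*, -1.65 for *Ccl12*, -0.47 for *Ccl3*, 0.11 for *Ccl4*, 0.69 for *Ccl5*, -0.43 for *Ccl6*, -0.50 for *Ccl9* and -0.49 for *Ccl22*. In limma 0 of the 10 were called in this subset of 2 mice, with adjusted p-values from 0.183 (*Ccl5*) to 0.636 (*Ccl4*), and 0.499% of all probe sets were. With the block added, a setting chosen after the data had been seen, *Ccl12* was called (adjusted p = 0.0405 in limma), while *Ccl7* (0.0559), *Ccl2* (0.0844) and *Ccl8* (0.0951) were not. That is 1 of the 10, against 2.37% of all probe sets. Without both arrays of mouse 3, the 4 monocyte-attracting genes were between -0.49 and -0.23.

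**Figure D2:**
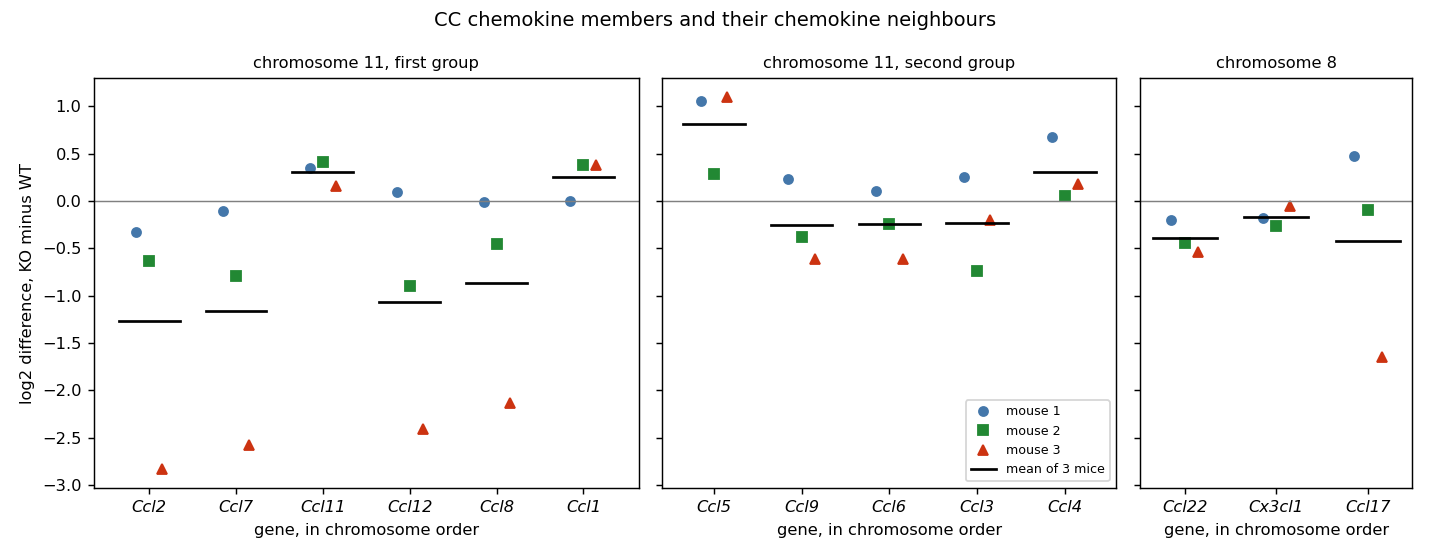
Log2 difference, KO minus WT, of each mouse (points) and mean of the 3 mice (bars) for the CC chemokines and their chemokine neighbours, in chromosome order. In the first run *Ccl2*, *Ccl7*, *Ccl12* and *Ccl8* have means between -1.27 and -0.87 while *Ccl11* (0.31), which lies between *Ccl7* and *Ccl12*, and *Ccl1* (0.25), which follows *Ccl8*, are above 0. *Ccl11* is close to the background level and *Ccl1* below it, and the background probe sets have a median of 0.14.

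Some patterns were shared by the genes across mice. Mouse 1 was the lowest of the 3 mice both among KO and among WT arrays for 10 of the 10, as it was for 18.9% of all probe sets. The SD of log2 intensity over mice was smaller among KO than among WT arrays for 10 of the 10, against 54.8% of all probe sets. For *Ccl2* the highest array was 1.79 times the lowest among KO and 9.63 times among WT cultures, for *Ccl7* 1.42 and 7.89 times, and for *Ccl12* 1.62 and 9.20 times. For *Ccl4* the ratios were 1.34 and 1.90, and for *Ccl22* 3.56 and 4.49. The WT array of mouse 3 was at least 2-fold above every other array for 4 of the 10, the monocyte-attracting genes, and for 57 probe sets or 0.263% of all.

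*Ccl2*, *Ccl7* and *Ccl12* were also among the closest of all genes to each other, which *Ccl8* was not in the same degree. The distances of *Ccl8* rest largely on background values, since only its WT array of mouse 3 was above the background level. Likeness was measured as the root mean square distance between the 6 log2 values of 2 genes, each gene centred on its own mean, over all 6 arrays and all probe sets of other genes. *Ccl12* was the closest gene to *Ccl7* and *Ccl7* the closest to *Ccl12*, at 0.13, and *Ccl12* and *Ccl7* were the 2 closest to *Ccl2*, at 0.25 and 0.27. The third closest to *Ccl2*, and second closest to *Ccl12*, was *Slc7a2*, a transporter of cationic amino acids (0.28 and 0.24). Its KO arrays and its WT array of mouse 1 were below the background level, so its distances rest largely on background values too. *Ccl8* was 0.27 from *Ccl7*, 0.32 from *Ccl12* and 0.40 from *Ccl2*, and nearer to it were the leukotriene B4 receptor gene *Ltb4r1* (0.20), the neutrophil chemokine *Cxcl2* (0.21) and *Rnf19b* (0.22). The other genes had different neighbours. *Ccl3* was nearest to *Dpep2* (0.09), *Tlr4* (0.10), the receptor for lipopolysaccharide, and *Fcgr1* (0.12), an Fc receptor of monocytes and macrophages, and *Ccl22* to *Atp2b1* (0.06), *Ralb* (0.06) and *Arrb1* (0.09).

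*Ccl9* lay nearest to *Sgk1* (0.15), *Lhfpl2* (0.16) and *Il1rn* (0.19), which encodes the interleukin 1 receptor antagonist, and *Ccl6* to *Ctsk* (0.12), the protease cathepsin K, *F7* (0.20) and *Bhlhe41* (0.23). *Ccl5* had no gene closer than *Mpo* (0.30), the myeloperoxidase of neutrophils, *Ctla2a* (0.32) and the interferon-induced *Ifit1* (0.34). *Ccl4* had *Shisa5*, *A430078G23Rik* and *Mir99a* at 0.07 each, where *Mir99a* (19.2 to 40.8) was below the background level on all arrays. Among the 10 themselves *Ccl6* and *Ccl9* were 0.37 apart, and the largest distance, 1.60, was between *Ccl4* and *Ccl6*. These distances are a description of 6 arrays that share mice in pairs.

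Chemokine genes that lie among or beside the 10 on the chromosome had other values. *Ccl11*, an attractant of eosinophils that sits between *Ccl7* and *Ccl12*, had intensities of 77.1, 80.6 and 70.7 in the KO arrays, against 60.7, 60.4 and 63.4 in the WT arrays. It was higher in every KO array than in every WT array, as were 10.2% of all probe sets, and close to the background level. Its mean log2 difference was 0.31 (standard error 0.09, adjusted p = 0.692 in limma), beside a median of 0.14 over the background probe sets. *Ccl1*, next to *Ccl8*, had a mean log2 difference of 0.25 and was at background on all arrays. On chromosome 8, *Ccl17*, which like *Ccl22* encodes a CCR4 ligand, had 38.2, 34.9 and 48.9 in the KO arrays and 27.4, 37.3 and 153 in the WT arrays. Only the WT array of mouse 3 was above the background level. *Cx3cl1*, which lies between them, had a mean log2 difference of -0.16.

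Of 30 other chemokines listed, 26 had a probe set, with no common direction. Their median log2 difference was 0.08, with 11 lower and 15 higher in KO, and 7 were within background on all arrays. No gene of the 26 passed limma's adjusted p. At an unadjusted p under 0.05, 0 were lower and 3 higher (*Ccl11*, *Cxcl13* and *Xcl1*), and with the mouse as a block 3 were lower (*Pf4*, *Cxcl2* and *Cxcl12*) and 5 higher (*Ccl11*, *Cxcl9*, *Cxcl10*, *Cxcl13* and *Xcl1*). Of these, *Cxcl13* was within background on all arrays. *Xcl1*, a ligand of XCR1, the receptor of cross-presenting dendritic cells, had intensities of 329, 270 and 337 in the KO arrays and 109, 157 and 152 in the WT arrays. It was the only one of the 26 that differed by at least 2-fold, with a mean log2 difference of 1.18. The interferon-induced *Cxcl9* and *Cxcl10*, attractants of T cells, had mean log2 differences of 0.67 and 0.68. *Cxcl9* was higher in the KO culture of all 3 mice, as *Ccl5* and *Ccl4* were, with its WT array of mouse 1 (46.0) below the background level. *Cxcl10* was higher in the KO culture of mice 2 and 3. Its KO and WT arrays of mouse 1 (53.6 and 36.2) were both below the background level, so no order can be read there.

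Among those lower with the block, *Cxcl2*, a neutrophil attractant, had intensities of 37.0, 47.5 and 56.4 in the KO arrays and 44.4, 63.0 and 159 in the WT arrays. The WT array of mouse 3 was highest, as for the monocyte-attracting genes. All KO arrays and the WT array of mouse 1 were below the background level, and the WT array of mouse 2 was close to it. *Pf4*, a platelet and macrophage chemokine, had 419, 1347 and 2827 in the KO arrays and 793, 2887 and 5424 in the WT arrays. It was lower by nearly the same step in each mouse, with a mean log2 difference of -0.99 (standard error 0.91, and 0.10 with the block). *Cxcl12*, made by stromal cells, had a mean log2 difference of -0.63.

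Probe sets were present for 10 of 11 listed receptors, decoy receptors included, of which 5 were within background on all arrays. Their median log2 difference was 0.08, and none passed limma's adjusted p. *Ccr2*, the receptor of CCL2, CCL7 and CCL12, had intensities of 1675, 1423 and 1230 in the KO arrays and 2203, 1316 and 1233 in the WT arrays, a mean log2 difference of -0.10. The KO and WT levels were nearly equal in mice 2 and 3. *Ccr1*, which binds CCL3, CCL5, CCL6 and CCL9, had 54.7, 97.6 and 209 in the KO arrays, against 87.9, 185 and 477 in the WT arrays. It was lower in the KO culture of each mouse, with a mean log2 difference of -0.93 (standard error 0.72, adjusted p = 0.784 in limma, and 0.12 and 0.259 with the block). With the block 2 receptors were lower at an unadjusted p under 0.05 (*Ccr1*, and *Ccr3* with a mean log2 difference of -0.51) and 1, *Ccr8*, was higher (0.44), the last within background on all arrays.

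**Figure D3:**
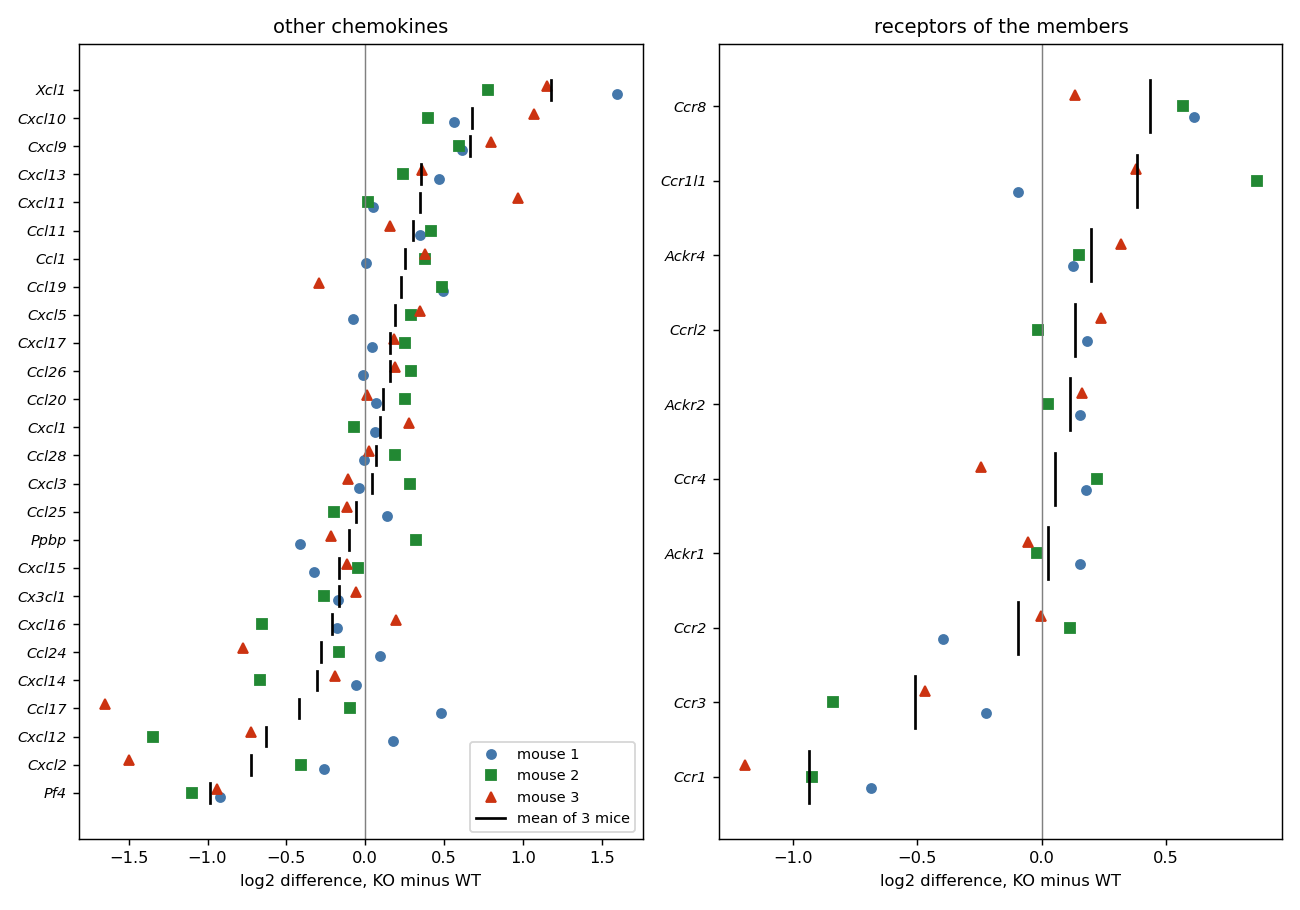
Log2 difference, KO minus WT, of each mouse (points) and mean of the 3 mice (bars) for the 26 other chemokines and the 10 receptors measured, ordered by the mean. *Xcl1* (1.18) is at the top of the chemokines and *Pf4* (-0.99) at the bottom, and *Ccr1* (-0.93) is lowest of the receptors.

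The sorted cells carried pDC markers, and markers of other cells also differed between the arrays. The 11 pDC markers measured had a summed intensity of 42868, 30321 and 28227 in the KO arrays of mice 1, 2 and 3 and 43736, 23092 and 18561 in the WT arrays. All 11 had a higher KO mean, but in mouse 1 the KO culture was lower for 5 of them. The 14 monocyte and macrophage markers summed to 6418, 26710 and 29684 in the KO arrays and 7540, 33389 and 34559 in the WT arrays, with all 14 means lower in KO. In mouse 1, where the 10 chemokines were lowest, the sum of these markers was also lowest in each group. The same held for the neutrophil, stroma, B cell, and basophil and mast cell sums given below. Not every single marker followed, as *Mrc1* had 662, 592 and 675 in the KO arrays of mice 1, 2 and 3. The 10 chemokines summed to 1397, 4653 and 6965 in the KO arrays and 1108, 5607 and 10746 in the WT arrays.

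The monocyte-attracting genes alone summed to 291, 375 and 446 in the KO arrays and 319, 621 and 2735 in the WT arrays. The summed monocyte and macrophage markers are carried by a few bright genes such as *Lyz2*, with 9943 and 10496 in the WT arrays of mice 2 and 3. Between these arrays the other genes of that list went both ways. Higher in mouse 3 were *F13a1* (408 and 799), *Mrc1* (1006 and 1619), *Fcgr1*, *Cd68* and *C1qa*. Lower in mouse 3 were *Csf1r* (1811 and 1698), *Adgre1* (1646 and 1397), *Fcrls* (530 and 450), *Cd14*, *C1qb*, *C1qc*, *Mertk* and *Cd163*. At an unadjusted p under 0.05 with the block, 7 of 14 monocyte and macrophage markers (*Fcrls*, *F13a1*, *Mrc1*, *Csf1r*, *Mertk*, *C1qa* and *C1qb*, with mean log2 differences from -1.98 to -0.32), 9 of 12 neutrophil markers (*Ngp*, *S100a9*, *S100a8*, *Lcn2*, *Ltf*, *Retnlg*, *Camp*, *Mmp8* and *Mmp9*, -2.26 to -0.72) and 10 of 12 stroma markers (*Lox*, *Acta2*, *Postn*, *Col1a2*, *Col3a1*, *Tagln*, *Col1a1*, *Cxcl12*, *Pdgfrb* and *Pdgfra*, -1.57 to -0.59) were lower, against 5.99% of all probe sets. In the same fit *Pax5* (-0.63) and *Ebf1* (-0.69) of B cells and *Mcpt8* (-0.84) of basophils were lower. Higher, against 7.46% of all probe sets, were the pDC markers *Ly6d*, *Tlr9*, *Cox6a2* and *Spib* (0.76 to 0.45), *Clec9a* (0.57) of conventional dendritic cells, *Nkg7*, *Klrd1* and *Ncr1* (0.77 to 0.52) of NK cells, *Cd3d* (0.26) of T cells and *Igll1* (0.29) of B cells. None of these markers passed limma's adjusted p with or without the block. Of the neutrophil markers, 10 of 12 had a lower KO mean and 7 by at least 2-fold, with sums from 642 to 5225 in KO and 1479 to 12077 in WT arrays. All 12 stroma markers had a lower KO mean, with sums of 658, 1932 and 2058 in the KO arrays and 683, 5591 and 5819 in the WT arrays. In mouse 1 only 7 of the 12 were lower in the KO culture, with a median log2 difference of -0.009. The 6 basophil and mast cell markers summed to 217, 282 and 369 in the KO arrays and 226, 264 and 906 in the WT arrays, again with the WT array of mouse 3 on top. Conventional dendritic cell markers (8 genes, 5377 to 5527 in KO and 4939 to 5506 in WT arrays), NK markers (8 genes, 2547 to 3358 and 1091 to 3555), T cell markers (5 genes, 754 to 907 and 594 to 964) and B cell markers (7 genes, 1251 to 2896 and 994 to 4048) are given by their lowest and highest sums. Within background on all arrays were 5 of the 8 NK markers and 3 of the 6 basophil and mast cell markers. The conventional dendritic cell, neutrophil, stroma and T cell lists had 1 such gene each. The part that any of these cells has in the chemokine values was not tested.

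**Figure D4:**
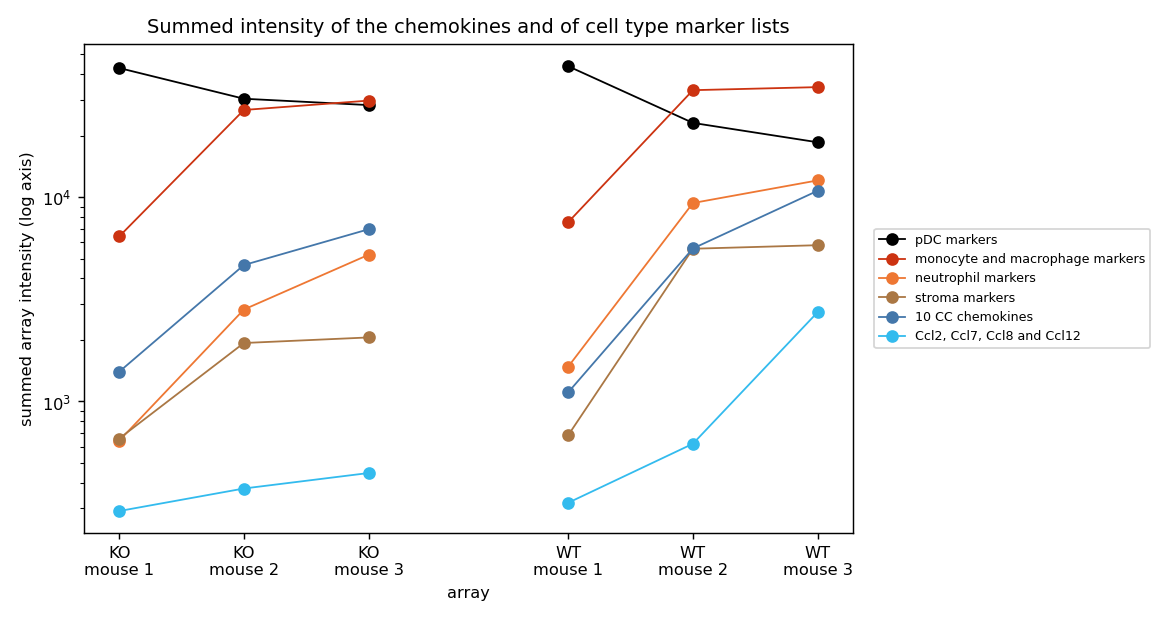
Summed array intensity (log axis) of the 10 CC chemokines, of *Ccl2*, *Ccl7*, *Ccl8* and *Ccl12* alone, and of 4 lists of cell type markers on each of the 6 arrays, with lines joining the arrays of a group. The 4 monocyte-attracting genes reach 2735 in the WT array of mouse 3 and lie between 291 and 621 in the other 5, while the monocyte and macrophage markers are at 33389 and 34559 in the WT arrays of mice 2 and 3.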

How the data were processed

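A KO and a WT culture from each of 3 mice were put on Affymetrix arrays, 6 in all. The authors deposited intensities on a linear scale, already normalized between arrays, with medians of 72.4 to 72.9 in KO and 69.0 to 70.5 in WT arrays and a range of 3.07 to 19106. The background correction, normalization and summary method are not given in the sources used here. Of 34760 probe sets, 21640 are paired with exactly 1 symbol, 1321 with several and 11799 with none. All 21640, dim ones included, entered the test after log2 transformation. Differences are KO minus WT means of log2 values, and near the background level such differences are compressed. Arrays give no read depth, so that their number limits the precision.

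limma 3.58.1 under R 4.3.3 (lmFit, then eBayes) gave two-sided tests of KO against WT, adjusted by Benjamini-Hochberg, and an adjusted p under 0.05 was a call. The labels put both cultures of a mouse under 1 number, so limma was also run with a term for each mouse (the block). After each group's mean was taken off, WT and KO arrays of mice 1, 2 and 3 correlated at 0.81, 0.51 and 0.67 over probe sets. The 10 genes, the lists of other chemokines, receptors and markers, and the motifs were chosen with earlier results of these data known. Text names all 10, list genes with an unadjusted p under 0.05 in the block fit or a difference of at least 2-fold, and the 3 nearest genes to each of the 10. List genes named for their place on the chromosome or receptor role (*Ccl1*, *Ccl17*, *Cx3cl1* and *Ccr2*) are outside this rule. So are some monocyte and macrophage markers that were compared between the WT arrays of mice 2 and 3. Alternatives were the block, array weights, a trended and robust fit, another quantile normalization, median centring, a floor at the 20th percentile, a pseudocount of 16, arithmetic means, dim probe sets left out, probe sets averaged per gene, and each array or mouse left out. Scripts were tested on simulated data.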

Additional observations from a re-analysis of the deposited data

How the results depend on the processing

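Settings that kept all 6 arrays turned no direction: of 99 values of the 10 genes, 0 changed sign. Part of these could not change sign. The block, the trended and robust fit, leaving out dim probe sets and averaging probe sets do not alter the difference of a gene. Across them the median log2 difference of the 10 genes was -0.48 to -0.29 and that of the monocyte-attracting genes -1.68 to -1.04, the lowest of both with arithmetic means, 2 to 4 genes were lower by at least 2-fold, 3 to 4 were lower in all mice, and 0 were called. With the replicate block, limma called 0 of the 10 as well. *Ccl8* has no value with dim probe sets left out, and averaging probe sets changes nothing, as each gene has 1.

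Leaving out an array or a mouse turned 14 of 120 values. The differences ran from -2.00 to -0.37 for *Ccl2*, -1.78 to -0.29 for *Ccl7*, -1.35 to -0.18 for *Ccl8*, -1.79 to -0.19 for *Ccl12*, -1.20 to 0.51 for *Ccl3* (0.026 without mouse 2, with or without the replicate block), -0.0010 to 0.46 for *Ccl4*, 0.06 to 1.44 for *Ccl5*, -1.63 to 0.95 for *Ccl6*, -1.41 to 0.66 for *Ccl9* and -1.06 to 0.18 for *Ccl22*. The median of the monocyte-attracting genes ran from -1.78 to -0.24 and that of the 10 from -1.38 to 0.30. Lower by at least 2-fold were 0 to 8 genes, called 0 to 1, and lower in all remaining mice 4 to 8, a count given only where a whole mouse was left out. Where 1 array of a mouse is left out, differences between mice enter the value.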

Other observations

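The WT array of mouse 3 was at least 2-fold above every other array for 57 of the 21640 probe sets, and the genes named here were chosen after these values were seen. *Arg1*, arginase 1 of alternatively activated macrophages, led them with intensities of 63.0, 98.7 and 408 in the KO arrays of mice 1, 2 and 3, against 85.1, 288 and 4703 in the WT arrays. The WT array of mouse 3 was 11.5 times the next highest array for *Arg1*, 8.27 times for *Chil3* and 5.38 times for *Klk1b11*. These were followed by *Ccl7* (4.74 times), *Slc7a2* (4.61 times), *Ccl2* (4.35 times) and *Ccl12* (4.29 times), and *Ccl8* had 3.44 times. Other genes of the 57 are not named here. *Slc7a2*, which carries arginine into cells, had 40.9, 54.9 and 55.8 in the KO arrays and 28.1, 70.6 and 326 in the WT arrays. For *Slc7a2* and *Klk1b11* all KO arrays and the WT array of mouse 1 were below the background level. The metalloproteinases *Mmp13* and *Mmp19* stood 4.10 and 3.55 times above the next array, the basophil protease *Mcpt8* 3.34 times, *Ccl17* 3.14 times and *Cxcl2* 2.52 times. No difference between 1 array and the others can be tested with these data.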
